A study of Mus musculus with 4 samples.

Results

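The genes described here are 32 genes of cholesterol synthesis, sensing, uptake and export, of 32286 rows in the deposited matrices, chosen by symbol: 19 enzymes of synthesis and 13 genes of regulation, transport and turnover. Single-nucleus RNA libraries, 4 in all and 1 per group, gave their levels in nuclei dissected from frozen primary motor cortex. All mice were C57BL/6N. The groups were sleep deprivation by gentle handling, local injection of AAV8-hSyn-FLAG-SIK3 without exon 13 (Ex13del), local injection of the same vector with wild-type SIK3 (WT vector), and ad lib sleep. SIK3 is a salt-inducible kinase, AAV8 is an adeno-associated virus, and the synapsin promoter hSyn drives the transgene in neurons, so both vector groups carry extra SIK3 beside the animals' own gene. With 1 library per group and no statement of how many animals each library holds, differences between groups have no replicate check. Their intervals cover counting error alone, and no p-value is given for them.

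Cholesterol does not cross the blood-brain barrier, so the brain makes its own. Acetyl units are joined and reduced to mevalonate, built up through isoprenoids to squalene, closed into lanosterol and trimmed to cholesterol. SREBP2, the product of Srebf2, switches the enzymes on when sterols are low, escorted from the endoplasmic reticulum by SCAP and held back there by the INSIG proteins. Astrocytes are known as the main source of sterol for adult neurons and oligodendrocytes build it into myelin, while neurons dispose of it by 24-hydroxylation through Cyp46a1.

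Upstream sequence was shown for Hmgcs1, Sc5d, Nsdhl and Ebp, to give the letters that the SREBP2 pathway is known to use. They were picked from the members whose shown bases lie wholly outside the annotated gene, and other such members are not shown. In RefSeq windows of 250 bases before the gene start (GRCm38.p6), of which 26 of the 32 members had 36, a sterol regulatory element (TCACNCCAC, either strand) was found in 1 window, of Hmgcs1, and in 1.05% of 32851 windows of the same length. A CCAAT box (CCAAT, either strand), which binds NF-Y, a known partner of SREBP2, was found in 23 of the 36 windows and in 33.8% of all windows. A GC box (GGGCGG, either strand), bound by Sp1, was found in 26 of the 36 and in 32.7% of all windows, and the E-box TCACGTGA in 0 of the 36 and in 0.785%. Below are the last 200 bases before the start, 5′ to 3′ in the direction of the gene, with the sterol regulatory element and the CCAAT boxes in capitals where present. Hmgcs1 (chr13:119690151-119690350, plus strand) and Sc5d (chr9:42264301-42264500, minus strand) are enzymes that were lower after sleep deprivation than after ad lib sleep in excitatory neurons. Nsdhl (chrX:72918321-72918520, plus strand) and Ebp (chrX:8193513-8193712, minus strand) are enzymes that stayed within the fold used here in that comparison. Each passed the fold in another comparison below, Nsdhl in Ex13del over the WT vector and Ebp in sleep deprivation over the WT vector. For sleep deprivation over ad lib sleep at the matched depth defined below, Sc5d was within the fold at 0.88 and Hmgcs1 at 0.755 was not.
Hmgcs1: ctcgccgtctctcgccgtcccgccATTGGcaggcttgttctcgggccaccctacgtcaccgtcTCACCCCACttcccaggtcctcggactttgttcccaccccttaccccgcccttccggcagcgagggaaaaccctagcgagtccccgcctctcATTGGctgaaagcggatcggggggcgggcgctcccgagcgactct
Sc5d: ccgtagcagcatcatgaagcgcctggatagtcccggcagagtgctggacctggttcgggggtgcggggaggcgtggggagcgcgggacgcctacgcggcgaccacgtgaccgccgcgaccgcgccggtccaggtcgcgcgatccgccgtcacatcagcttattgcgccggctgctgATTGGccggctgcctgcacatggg
Nsdhl: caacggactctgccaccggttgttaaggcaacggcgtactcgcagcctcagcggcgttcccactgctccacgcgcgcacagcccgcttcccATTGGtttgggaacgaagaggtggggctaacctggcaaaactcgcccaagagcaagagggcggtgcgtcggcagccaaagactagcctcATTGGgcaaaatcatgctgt
Ebp: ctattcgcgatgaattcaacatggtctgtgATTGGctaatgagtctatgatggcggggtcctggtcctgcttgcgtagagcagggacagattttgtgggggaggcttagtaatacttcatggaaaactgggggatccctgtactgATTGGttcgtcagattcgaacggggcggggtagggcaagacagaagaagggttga
The element of Hmgcs1 begins 137 bases before the start. The sequences were shown after the values were known, a match is a description of letters, and a window without a match says nothing of the factor.

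In all, the libraries held 49422196 UMIs (unique transcript counts) after sleep deprivation, 43655557 with Ex13del, 47662932 with the WT vector and 54070503 after ad lib sleep, and 5317, 5490, 6312 and 8208 nuclei of these libraries were kept. Pairs of libraries shared 9 to 16 cell barcodes, and no library had more than 0.639% of its barcodes in another. Nuclei were clustered without the members and named by markers as excitatory neuron-like, inhibitory neuron-like, astrocyte-like and so on, shortened to the class name below. Striatal projection neurons (218 to 420 nuclei per library) were found although the labels name cortex. Excitatory nuclei numbered 1902, 2153, 2750 and 3721, with a median of 13826.5, 9925, 9106 and 7398 UMIs, so the sleep deprivation library was the deepest. The vector feature WPRE_pA had 3072 UMIs with Ex13del and 1366 with the WT vector in excitatory nuclei, and 0 after sleep deprivation and after ad lib sleep. One cluster of low depth stayed unnamed and held 28.2% of the kept nuclei after sleep deprivation, 12.2% with Ex13del, 12.1% with the WT vector and 8.11% after ad lib sleep. It carried 19750 to 22960 CPM of mitochondrial transcripts, against 3708 to 4141 CPM in excitatory nuclei, and serves below as the comparison for free RNA.

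Excitatory neurons had lower levels of synthesis enzymes after sleep deprivation than after ad lib sleep. Levels are CPM, the counts of a gene per 1000000 UMIs of the class in that library, and a gene counts as measured where the 2 libraries compared average 5 CPM or more and hold 50 or more of its UMIs together. Of the 19 synthesis genes 17 were measured, all 17 had a ratio below 1 (55.3% of all 11999 measured genes did), and 9 had a ratio of at most 0.8 (12.8% of all genes), while 0 reached the inverse of 0.8, the fold counted upward (7.4% of all genes). Their median log2 ratio of CPM + 1 was -0.317, against -0.027 over all measured genes. The sum over the 19 genes was 249.0 CPM after sleep deprivation and 315.4 CPM after ad lib sleep, with 286.3 CPM with Ex13del and 285.9 CPM with the WT vector between them. The sleep deprivation library was the lowest of the 4 for 12 of the 17 genes (37.6% of all genes) and the ad lib library the highest for 12 of the 17 (27.8%).

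Depth moved with this result. Within every library the summed synthesis level was higher in shallow nuclei, and it was higher still in the unnamed low-depth cluster, at 690 CPM after sleep deprivation, 660 CPM with Ex13del, 594.4 CPM with the WT vector and 680.3 CPM after ad lib sleep. Among excitatory nuclei with 8000 to 16000 UMIs it was 265.1 CPM after sleep deprivation and 302.7 CPM after ad lib sleep, and among those with 16000 or more it was 233.1 CPM after sleep deprivation and 280.6 CPM after ad lib sleep. Below 4000 UMIs the 2 libraries were alike, at 396.9 CPM after sleep deprivation (101 nuclei) and 398.3 CPM after ad lib sleep (570 nuclei). The range of 8000 to 16000 UMIs held 783 nuclei after sleep deprivation and 1389 after ad lib sleep. It is called matched depth below, although its median nucleus had 11936 UMIs after sleep deprivation and 10482 after ad lib sleep. The median log2 ratio of the 17 genes there was -0.195, and 12 of the 17 were below 1. The share of all genes below 1 was not counted in this range. Of the 17 genes, 6 were at most 0.8 (10.6% of all genes) and 1, Pmvk, was past the upper fold (15% of all genes). Fdft1 (1.03), Ebp (1.07), Fdps (1.08) and Tm7sf2 (1.21) also had ratios above 1. The neuronal transcript Nrgn was also higher after sleep deprivation in that range (531.3 CPM against 345.0 CPM after ad lib sleep), as were mitochondrial transcripts (4569 CPM against 3436 CPM). The part of free RNA in the difference was not tested.

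**Figure D1:**
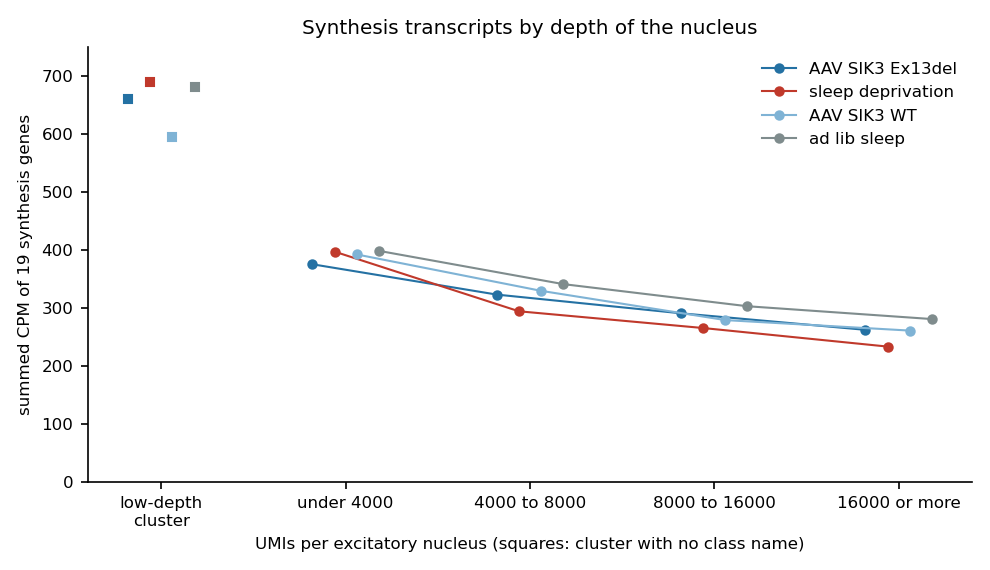
Summed CPM of the 19 synthesis genes in each library, by UMIs per excitatory nucleus (circles) and in the unnamed low-depth cluster (squares). The sum is lower in each deeper range in every library, and from 4000 UMIs upward the sleep deprivation library lies below the ad lib library, for example at 233.1 and 280.6 CPM in nuclei with 16000 or more.

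The mevalonate enzymes held 4 of the 9 lower genes. Acat2, which joins acetyl units, had 11.1 CPM after sleep deprivation against 18.95 CPM after ad lib sleep, and 17.7 CPM with Ex13del against 13.9 CPM with the WT vector. Its sleep deprivation ratio of 0.587 (95% interval 0.511 to 0.674) was the lowest of the measured members, and it stayed at 0.569 in nuclei of 8000 to 16000 UMIs. Hmgcs1, the synthase before mevalonate, had 32.1 CPM after sleep deprivation against 42.6 CPM after ad lib sleep, and 34.9 CPM with Ex13del against 37.1 CPM with the WT vector. Its ratio was 0.754 (0.692 to 0.820), and 0.755 at matched depth. Idi1, the isomerase that makes dimethylallyl units, had 7.07 CPM after sleep deprivation against 10.7 CPM after ad lib sleep (0.661, 0.552 to 0.788), and 9.72 CPM with Ex13del against 10.1 CPM with the WT vector. Fdps, which makes farnesyl diphosphate, was lower over all nuclei, at 12.5 CPM after sleep deprivation against 17.0 CPM after ad lib sleep (0.735, 0.641 to 0.842), but not at matched depth, where its ratio was 1.08. Pmvk, a mevalonate-pathway kinase, had a ratio of 0.906 (0.768 to 1.07) over all nuclei and 1.35 at matched depth. Mvk and Mvd, a kinase and the decarboxylase of the same stretch, stayed under the minimum level at 2.44 to 3.06 CPM and 2.85 to 3.54 CPM over the 4 libraries. Mvd overlaps a gene on the other strand and Fdps one on its own strand, and whether counting used strand is not given in the sources used here, so their counts are uncertain.

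Sqle had the lowest ratio of the 3 genes from squalene to lanosterol. Sqle, squalene epoxidase and a rate-limiting enzyme of the later pathway, had 13.4 CPM after sleep deprivation against 22.3 CPM after ad lib sleep, and 19.7 CPM with Ex13del against 17.7 CPM with the WT vector. The ratio of 0.602 (0.530 to 0.682) was 0.687 at matched depth, and the sleep deprivation library was the lowest of the 4. Lss, which closes squalene epoxide into lanosterol, had 9.99 CPM after sleep deprivation and 12.7 CPM after ad lib sleep (0.788, 0.674 to 0.919), and 0.759 at matched depth. Fdft1, squalene synthase, had 32.6 CPM after sleep deprivation and 35.5 CPM after ad lib sleep, a ratio of 0.919 whose interval (0.841 to 1.003) includes 1. Fdft1 overlaps Ctsb on the other strand.

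The 9 enzymes from lanosterol to cholesterol were less uniform. Lbr, a sterol reductase of the nuclear envelope, had 9.99 CPM after sleep deprivation against 13.7 CPM after ad lib sleep (0.728, 0.625 to 0.847). Msmo1, the methyl sterol oxidase, had 19.4 CPM after sleep deprivation against 27.1 CPM after ad lib sleep (0.717, 0.643 to 0.799). Sc5d, the desaturase near the end, had 21.6 CPM after sleep deprivation against 27.9 CPM after ad lib sleep (0.773, 0.696 to 0.858). These 3 were the members of the group at or below 0.8, and at matched depth their ratios were 0.797 (Lbr), 0.869 (Msmo1) and 0.88 (Sc5d). Cyp51, the lanosterol demethylase, had a ratio of 0.891 (0.806 to 0.986) and 0.960 at matched depth. Dhcr7, the last reductase, had 0.858 (0.732 to 1.005), and the decarboxylating dehydrogenase Nsdhl had 0.874 (0.728 to 1.05). Tm7sf2, a second sterol reductase, Hsd17b7, a ketosteroid reductase, and Ebp, the isomerase, had ratios of 0.977 to 0.986, all with intervals that include 1. Tm7sf2 overlaps Vps51 on its own strand, and on the other strand Cyp51 overlaps Akap9 and Lbr overlaps Dnah14, which leaves their counts uncertain here and between classes.

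**Figure D2:**
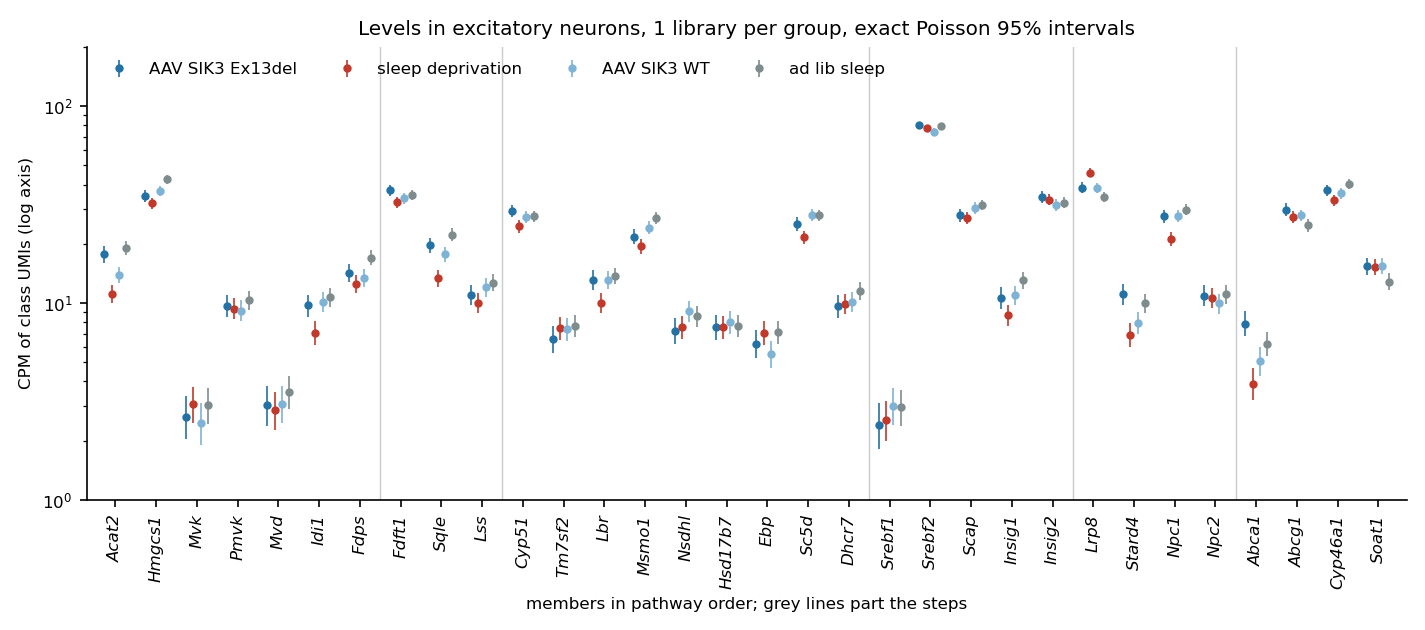
CPM (log axis) of the 32 members in excitatory neurons, in pathway order, with 1 point per library and exact Poisson 95% intervals. The sleep deprivation point is the lowest of the 4 for Acat2, Idi1, Sqle, Insig1, Npc1 and Abca1 and the highest for Lrp8.

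Among the sensors, Insig1 was lower and Srebf2 was not. Insig1, which retains SREBP2 in the endoplasmic reticulum and is itself a known SREBP target, had 8.69 CPM after sleep deprivation against 13.05 CPM after ad lib sleep, and 10.6 CPM with Ex13del against 10.9 CPM with the WT vector. Its ratio was 0.666 (0.567 to 0.781), and 0.544 at matched depth, the lowest ratio of the measured members there. Srebf2 had 77.4 CPM after sleep deprivation and 78.9 CPM after ad lib sleep (0.981, 0.926 to 1.039), and 79.97 CPM with Ex13del and 74.2 CPM with the WT vector. At matched depth its ratio was 1.17. Scap had a ratio of 0.864 (0.786 to 0.950) and Insig2, the isoform not induced by SREBP2, 1.037 (0.948 to 1.134). Srebf1, which drives fatty acid synthesis, stayed under the minimum level at 2.40 to 3.003 CPM over the 4 libraries, and overlaps Rai1 on the other strand, so its counts are uncertain in every class.

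Uptake and transport genes were split. Lrp8, a lipoprotein and reelin receptor, was the single member past the upper fold after sleep deprivation, with 45.9 CPM against 34.6 CPM after ad lib sleep, and 38.5 CPM with Ex13del against 38.5 CPM with the WT vector. Its ratio was 1.33 (1.23 to 1.44), 1.32 at matched depth, and above 1 in 8 of 8 excitatory subclasses (1.13 to 1.57). Npc1, which moves cholesterol out of lysosomes, had 21.2 CPM after sleep deprivation against 29.8 CPM after ad lib sleep (0.710, 0.640 to 0.787), and was below 1 in 7 of the 7 subclasses where it was measured. Stard4, a cytosolic sterol carrier, had 6.87 CPM after sleep deprivation against 9.96 CPM after ad lib sleep (0.689, 0.574 to 0.826), but 0.889 at matched depth. Npc2, the lysosomal partner of Npc1, had a ratio of 0.959 (0.819 to 1.12) over all nuclei and 1.33 at matched depth. Genes on the other strand overlap Lrp8 and Npc1.

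Of the genes of export, turnover and storage, the exporter Abca1 was lower, at 3.88 CPM after sleep deprivation against 6.20 CPM after ad lib sleep (0.626, 0.492 to 0.794), and 0.680 at matched depth. Cyp46a1, the 24-hydroxylase of neurons, had 33.2 CPM after sleep deprivation and 40.3 CPM after ad lib sleep (0.825, 0.758 to 0.898), but a ratio of 1.03 at matched depth. Abcg1, a second exporter, had 1.10 (0.996 to 1.22) and Soat1, which esterifies cholesterol for storage, 1.19 (1.03 to 1.36). Neither reached the upper fold.

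**Figure D3:**
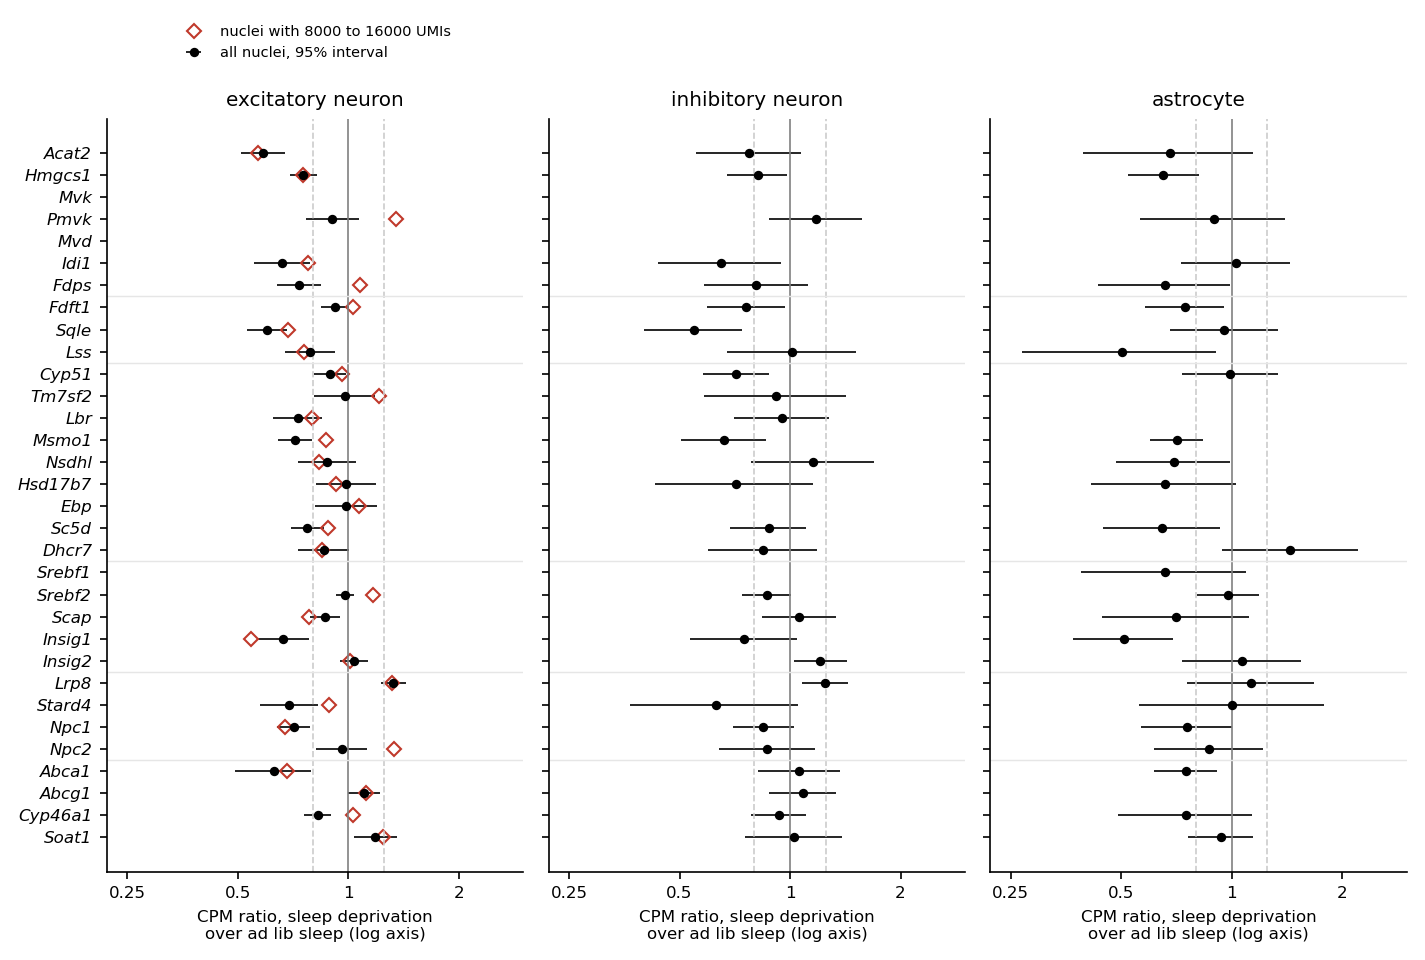
CPM ratio of sleep deprivation over ad lib sleep (log axis) for the measured members in excitatory neurons, inhibitory neurons and astrocytes, with exact conditional 95% intervals. Red diamonds give the ratio in excitatory nuclei with 8000 to 16000 UMIs, and dashed lines mark 0.8 and its inverse: Acat2, Hmgcs1, Sqle, Insig1 and Npc1 keep ratios under 0.8 there, while Fdps and Cyp46a1 lie at 1.08 and 1.03.

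The excitatory subclasses differed in how much lower the enzymes were. In corticothalamic layer 6 neurons (L6 CT) 14 of 17 measured synthesis genes were below 1 (55.1% of all genes) and 12 were at most 0.8 (16.6%), with a median log2 ratio of -0.411 against -0.033 over all genes. Their summed level was 268.6 CPM after sleep deprivation and 366.1 CPM after ad lib sleep. In nuclei of 8000 to 16000 UMIs it was 263.4 CPM after sleep deprivation and 356.9 CPM after ad lib sleep. The median L6 CT nucleus in that range had 12003 UMIs after sleep deprivation and 9908 after ad lib sleep. The median was -0.422 in intratelencephalic (IT) neurons of layers 4 and 5 (L4/5 IT), -0.427 in extratelencephalic layer 5 neurons (L5 ET), -0.356 in L6 IT and -0.510 in L6b. L6b held 790185 UMIs after sleep deprivation and 895196 after ad lib sleep, and fewer synthesis genes were measured there than in L6 CT. These medians thus do not rest on the same genes. At matched depth the summed level was 227.8 CPM after sleep deprivation and 288.9 CPM after ad lib sleep in L4/5 IT. It was 279.4 CPM after sleep deprivation and 336.1 CPM after ad lib sleep in L6 IT. In L5 ET it was 219.3 CPM after sleep deprivation (21 nuclei, 56 UMIs of synthesis genes) and 297.0 CPM after ad lib sleep (124 nuclei, 430 UMIs). In L6b it was 337.9 CPM after sleep deprivation and 442.4 CPM after ad lib sleep over all nuclei, but 411.9 CPM (19 nuclei) after sleep deprivation and 449.9 CPM (37 nuclei) after ad lib sleep at matched depth. The gap was thus narrower in L6b at matched depth. In the cluster led by Il1rapl2 the median was -0.164, and the matched sums were 291.4 CPM after sleep deprivation and 313.7 CPM after ad lib sleep. In L2/3 IT neurons the median was -0.213, and the summed level at matched depth was 216.6 CPM after sleep deprivation and 213.3 CPM after ad lib sleep. In near-projecting neurons (L5/6 NP) the median was -0.002 over 7 genes, and the sums were 507.7 CPM after sleep deprivation and 503.2 CPM after ad lib sleep. With 1 library per group, the difference between subclasses was not tested. Hmgcs1 and Msmo1 were below 1 in 8 of 8 subclasses, and Acat2, Lbr and Fdps in each of the 6, 6 and 7 where they were measured.

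Other classes are given beside excitatory neurons. In inhibitory neurons the median log2 ratio of sleep deprivation over ad lib sleep was -0.286 over 16 synthesis genes, of which 13 were below 1 (53.7% of all genes) and 7 at most 0.8 (15.1%). Sqle had 11.9 CPM after sleep deprivation against 21.8 CPM after ad lib sleep (0.546, 0.399 to 0.740), Idi1 0.647 (0.437 to 0.943) and Lrp8 1.24 (1.08 to 1.43). Among inhibitory subclasses the median was -0.469 in Sst neurons over 10 genes and -0.523 in Vip neurons over 7, against -0.007 in Pvalb neurons over 10. Depth differed here too, with a median of 11483 UMIs per inhibitory nucleus after sleep deprivation and 6257 after ad lib sleep. In inhibitory nuclei of 8000 to 16000 UMIs the median log2 ratio was -0.267 over 12 genes, 9 of them below 1. There 5 were at most 0.8 (13.3% of all genes) and 3 past the upper fold (1996 of all 10306 genes). In striatal projection neurons the 7 measured synthesis genes all lay at 0.8 or less (28.3% of all genes), with Fdps at 7.67 CPM after sleep deprivation against 20.5 CPM after ad lib sleep (0.375, 0.212 to 0.648). Their median nucleus had 10985 UMIs after sleep deprivation and 5694 after ad lib sleep, and no range of depth was compared in this class.

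In astrocytes 12 of 14 measured synthesis genes were below 1 (52.9% of all genes) and 9 at most 0.8 (20.4%), with a median of -0.506 against -0.026 over all genes. Insig1 had 46.2 CPM after sleep deprivation against 91.0 CPM after ad lib sleep (0.508, 0.368 to 0.693), and 60.7 CPM with Ex13del against 45.6 CPM with the WT vector. Msmo1 had 179.3 CPM after sleep deprivation against 253.0 CPM after ad lib sleep, and Hmgcs1 had 98.7 CPM after sleep deprivation against 151.7 CPM after ad lib sleep. Lss was lowest by ratio (0.503, 0.268 to 0.905), while Dhcr7 went the other way at 1.44 with an interval that includes 1 (0.940 to 2.21). In astrocyte nuclei of 2000 to 5000 UMIs the median was -0.370 over 11 genes, against 0.016 over all genes. Of the 11 genes 7 were below 1, 6 at most 0.8 (21.9% of all genes) and 2 past the upper fold (24.3%). The median nucleus in that range had 3408.5 UMIs after sleep deprivation and 2917 after ad lib sleep. Markers of other cell types differed between the same astrocyte libraries. The 8 striatal projection neuron markers summed to 541.1 CPM after sleep deprivation and 138.1 CPM after ad lib sleep, and the 6 oligodendrocyte markers to 862.2 CPM after sleep deprivation and 587.2 CPM after ad lib sleep. The 6 excitatory markers summed to 1338 CPM after sleep deprivation and 1065 CPM after ad lib sleep, and 0 of these markers were at 0. Their part in the result was not tested. In oligodendrocytes the median was -0.093 over 12 genes, 8 of them below 1 (54.2%), and Srebf1 had 10.9 CPM after sleep deprivation against 33.75 CPM after ad lib sleep (0.322, 0.155 to 0.619). In the remaining classes 4 or fewer synthesis genes were measured.

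Few of these genes differed past the fold between the 2 SIK3 vectors. In excitatory neurons the median log2 ratio of Ex13del over the WT vector was -0.053 over 17 synthesis genes, 9 below 1 (37.8% of all genes) and 8 above (62.2%), against 0.038 over all genes. One gene, Nsdhl, was at or below 0.8 (0.94% of all genes), with 7.20 CPM with Ex13del and 9.08 CPM with the WT vector (0.793, 0.651 to 0.964). One, Acat2, was past the upper fold (5.83%), with 17.7 CPM with Ex13del and 13.9 CPM with the WT vector (1.27, 1.11 to 1.46), and above 1 in 6 of 6 subclasses. The larger ratios were in Abca1, with 7.86 CPM with Ex13del and 5.06 CPM with the WT vector (1.55, 1.24 to 1.94), and Stard4, with 11.1 CPM with Ex13del and 7.93 CPM with the WT vector (1.40, 1.17 to 1.68). At matched depth these were 1.86 (Abca1) and 1.53 (Stard4). Nsdhl was at 0.862 there, so that 0 synthesis genes were at most 0.8 (2.12% of all genes), and 2 were past the upper fold (9.7%), Acat2 at 1.28 and Sqle at 1.27. In all excitatory nuclei Abca1 had 190 UMIs with Ex13del and 145 with the WT vector, and the cluster led by Il1rapl2 held 51 of these with Ex13del and 16 with the WT vector (CPM ratio 3.53, 1.98 to 6.63). Stard4 was above 1 in 4 of 4 measured subclasses and in inhibitory neurons (1.68, 1.09 to 2.61).

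In the other classes the Ex13del ratios had both signs. In astrocytes 12 of 14 synthesis genes were below 1 (52.1% of all genes) and 4 at most 0.8 (14.2%), with a median of -0.170, Pmvk at 12.95 CPM with Ex13del against 28.6 CPM with the WT vector and Npc1 at 81.75 CPM with Ex13del against 58.7 CPM with the WT vector. The medians were -0.026 in inhibitory neurons and -0.055 in oligodendrocytes, where Sqle had 50.4 CPM with Ex13del and 27.1 CPM with the WT vector (1.86, 1.18 to 2.99). The WT vector over ad lib sleep gave a median of -0.074 in excitatory neurons, with 14 of 17 genes below 1 (54.9% of all genes) and 4 at most 0.8 (6.22%). At matched depth this median was -0.111, and 1 gene, Acat2 at 0.771, was at most 0.8 (6.04% of all genes). Sleep deprivation over the WT vector gave -0.202, with 14 of 17 below 1 (51.4%), 4 at most 0.8 (8.23%) and 1, Ebp at 1.28, past the upper fold (7.17%). At matched depth this last median was -0.046 and 3 were at most 0.8 (8.99%). These comparisons share the ad lib or the WT vector library with those above.

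The medians of 6 neighbouring gene lists after sleep deprivation over ad lib sleep lay between -0.052 and 0.361. Of all 11999 genes measured in excitatory neurons, 55.3% were below 1, 12.8% at most 0.8 and 7.4% past the upper fold. In excitatory neurons the isoprenoid branch had a median log2 ratio of 0.084, with 8 of 10 genes above 1, from Fnta, a farnesyltransferase subunit, at 0.7996 (0.720 to 0.888) to Nus1, a dolichol synthesis subunit, at 1.12. Fatty acid genes of SREBP1 had a median of 0.028, 5 of 12 below 1, from the desaturase Fads2 at 0.813 to the acetyl-CoA synthetase Acss2 at 1.40 (1.30 to 1.503). Genes that process or degrade the sterol sensors had -0.043, 6 of 12 below 1, from the coat subunit Sec23a at 0.803 to Ube2g2 at 1.18. The oxysterol receptor list (LXR and its targets) had 0.183 over 5 measured genes, from Mylip at 0.850 to Scarb1 at 1.246. Lipoprotein receptors had 0.361 over 5, with 3 past the upper fold and 1 at or below 0.8, from Vldlr at 0.769 (0.683 to 0.865) to Sort1 at 1.34 (1.28 to 1.40). Intracellular sterol transport had -0.052 over 11, 7 of them below 1, from the oxysterol-binding protein Osbp at 0.708 (0.650 to 0.771) to Vapb at 1.18.

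Between cell classes the members could be tested over the 4 libraries, since each library holds every class. The summed synthesis level was 756.8 to 1070 CPM in astrocytes and 574.9 to 686.2 CPM in oligodendrocytes over the 4 libraries, against 249.0 to 315.4 CPM in excitatory neurons. In microglia it was 236.7 to 395.3 CPM, a range that overlaps that of excitatory neurons. The unnamed low-depth cluster had 594.4 to 690 CPM, a range that overlaps that of oligodendrocytes. The oligodendrocyte sum thus cannot be told apart from free RNA. With edgeR's quasi-likelihood test against excitatory neurons (library as a block, Benjamini-Hochberg over 14476 genes), 25 of the 32 members were higher in astrocytes and 2 lower, at an adjusted p under 0.05, where 33.3% of all genes were higher and 33.8% lower. In oligodendrocytes 21 were higher and 2 lower (32.4% and 36.3% of all genes). Msmo1 had 179.3, 147.3, 189.3 and 253.0 CPM in astrocytes (sleep deprivation, Ex13del, WT vector and ad lib sleep) against 19.4, 21.8, 24.1 and 27.1 CPM in excitatory neurons, groups that do not overlap. Its edgeR log2 fold change was 2.75 ± 0.106 (SE, n = 4 libraries, adjusted p = 4.93e-25). This SE and p-value come from 1 fit of all classes, which share the estimate of the spread, and not from these 2 classes alone. Hmgcs1 averaged 123.7 ± 23.1 CPM in astrocytes and 36.7 ± 4.45 CPM in excitatory neurons (SD, n = 4), a log2 fold change of 1.45.

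**Figure D4:**
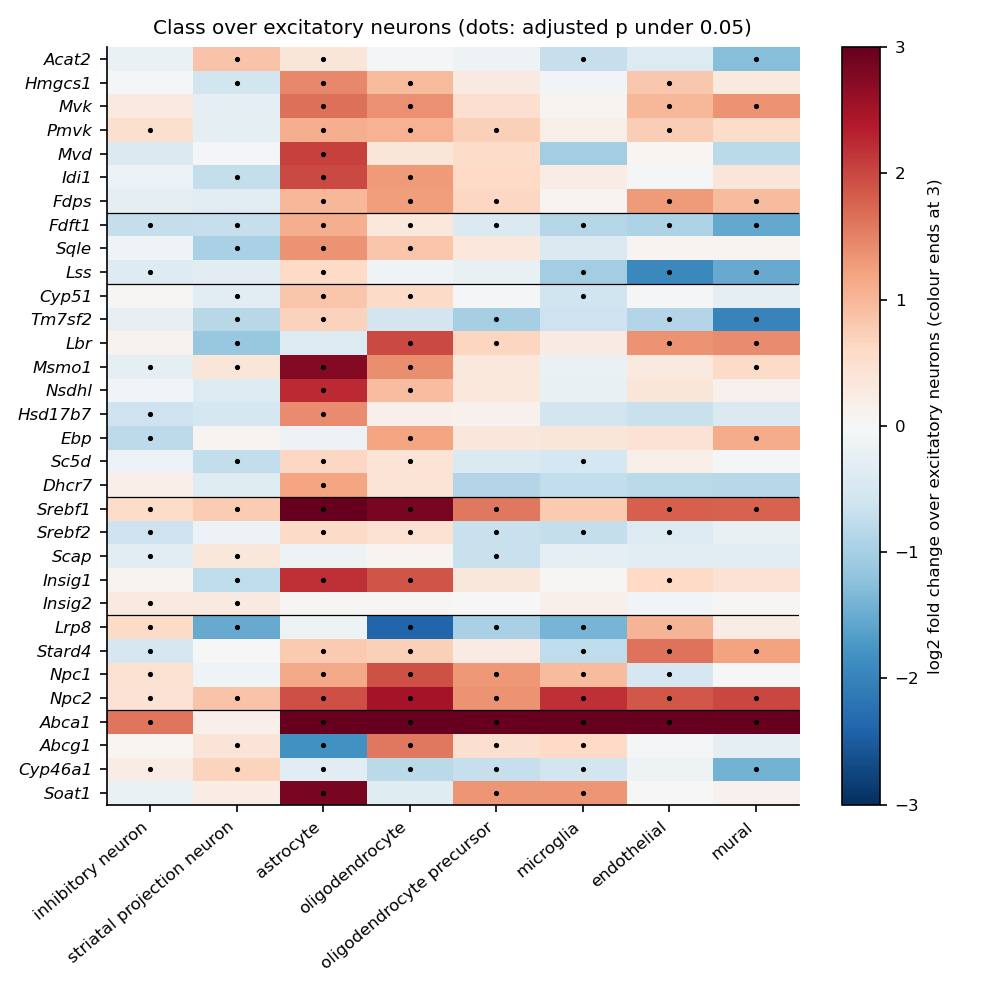
Log2 fold change of each class over excitatory neurons (edgeR, 4 libraries) for the 32 members in pathway order, with dots at an adjusted p under 0.05. Astrocytes and oligodendrocytes are red through most of the pathway, with 25 and 21 members higher, and Abca1 is higher in all classes but striatal projection neurons.

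Free RNA limits how far these class differences can be read, since glial nuclei were shallow (a median of 2749 UMIs in astrocytes and 2049 in oligodendrocytes, against 9090 in excitatory neurons) and the low-depth cluster was rich in synthesis transcripts. The 6 excitatory markers summed to 1063 to 1338 CPM in astrocytes and 1094 to 1334 CPM in oligodendrocytes, against 1910 to 2376 CPM in excitatory neurons, and in endothelial nuclei they came to 1656 to 2303 CPM. In microglia the excitatory markers came to 1539 to 1911 CPM. After sleep deprivation the 1911 CPM exceeded the 1451 CPM of the 6 microglial markers, which had 2909 to 3107 CPM in the other libraries. The part of this RNA in the microglial levels was not tested. Of the 32 members, 15 in astrocytes and 11 in oligodendrocytes exceeded the low-depth cluster in all 4 libraries. The same count was not made over all genes, so whether 15 or 11 is more than usual cannot be told. Msmo1 (192.2 CPM on average against 62.6 CPM in the low-depth cluster), Insig1 (60.9 against 29.8) and Nsdhl (47.4 against 11.5) were among the 15. Hmgcs1, Fdps and Pmvk were below the low-depth cluster in all 4 libraries in astrocytes, so their excess over excitatory neurons cannot be told apart from free RNA. In oligodendrocytes the enzymes Acat2, Hmgcs1, Pmvk and Hsd17b7 were below the low-depth cluster in all 4 libraries, with the same limit. In microglia 5 members were higher and 9 lower than in excitatory neurons (23.2% and 33.1% of all genes). In endothelial nuclei 11 were higher and 5 lower (29.9% and 38.7%), in mural nuclei 9 and 5 (31.6% and 33.6%), and in oligodendrocyte precursors 9 and 6 (22.7% and 27.1%). Mural nuclei carried 5749 to 7152 CPM of the 6 endothelial markers, more than the 3976 to 5614 CPM of their own 6 markers, so their calls cannot be told apart from endothelial RNA.

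Regulators, exporters and transport genes also differed between classes. Abca1 averaged 169.1 ± 27.7 CPM in astrocytes, 75.6 ± 11.98 CPM in oligodendrocytes and 208.7 ± 82.8 CPM in microglia, against 5.75 ± 1.70 CPM in excitatory neurons (SD, n = 4), with log2 fold changes of 4.58, 3.39 and 4.64. Srebf1 averaged 30.1 ± 7.83 CPM in astrocytes and 24.75 ± 9.80 CPM in oligodendrocytes against 2.72 ± 0.299 CPM in excitatory neurons. Soat1 was higher in astrocytes (130.4 ± 15.7 CPM against 14.7 ± 1.26 CPM, edgeR adjusted p = 3.33e-24) but not called in oligodendrocytes (14.3 ± 3.34 CPM). Abcg1 ran the other way between the glia, with 103.1 ± 10.04 CPM in oligodendrocytes and 9.37 ± 4.66 CPM in astrocytes against 27.45 ± 2.08 CPM in excitatory neurons. Oligodendrocytes were high in Npc1 (125.8 ± 14.7 CPM against 26.6 ± 3.76 CPM), Npc2 (75.05 ± 5.35 CPM against 10.6 ± 0.496 CPM) and Lbr (61.6 ± 4.57 CPM against 12.5 ± 1.69 CPM), and low in Lrp8 (9.54 ± 5.61 CPM against 39.4 ± 4.74 CPM). Cyp46a1 was lower in oligodendrocytes than in excitatory neurons (log2 fold change -0.80, edgeR adjusted p = 1.08e-06). Its average was 36.8 CPM in excitatory neurons, 35.6 CPM in astrocytes, 34.7 CPM in microglia and 49.7 CPM in endothelial nuclei. It was 26.4 CPM in oligodendrocytes, 28.5 CPM in oligodendrocyte precursors and 18.6 CPM in mural nuclei. The low-depth cluster averaged 78.9 CPM and exceeded each of these classes in all 4 libraries. The part of free RNA in these levels was not tested. Abca1, Srebf1, Abcg1, Npc1, Npc2 and Lbr exceeded the low-depth cluster in oligodendrocytes in all 4 libraries.

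Among neurons the calls ran both ways. Inhibitory neurons had 8 members higher and 8 lower than excitatory neurons (22.7% and 24.9% of all genes). Lrp8 was higher (64.1 ± 6.83 CPM against 39.4 ± 4.74 CPM, log2 fold change 0.56), as were Abca1 (1.61) and Npc1 (0.45). Fdft1 (-0.72), Srebf2 (-0.61) and Ebp (-0.78) were lower. Striatal projection neurons had 8 higher and 10 lower (22% and 25% of all genes), with Acat2 (0.85) and Cyp46a1 (0.68) among the higher and Lrp8 (-1.51) and Lbr (-1.13) among the lower.

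Within excitatory neurons most members were lower in the upper layer. L2/3 IT neurons had 24 of 32 members lower than the mean of the other subclasses and 3 higher (edgeR, adjusted over 14669 genes, where 18.7% were lower and 22.5% higher). Insig1 had 4.39, 6.67, 4.495 and 6.12 CPM in L2/3 IT neurons (sleep deprivation, Ex13del, WT vector and ad lib sleep) and averaged 12.2 ± 2.47 CPM in L6 CT and 17.6 ± 1.68 CPM in L5/6 NP neurons (SD, n = 4), none of whose libraries overlap those of L2/3 IT. Its log2 fold change was -1.29 ± 0.139 (SE, edgeR adjusted p = 1.68e-10), followed by Idi1 (-1.12), Msmo1 (-1.06) and Sqle (-0.97). The 3 higher members were Cyp46a1 (0.98), Abca1 (0.87) and Insig2 (0.18). Cyp46a1 averaged 58.5 ± 7.19 CPM in L2/3 IT neurons and 19.5 ± 3.504 CPM in L6 CT neurons, where it was lower than in the other subclasses (-0.85).

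**Figure D5:**
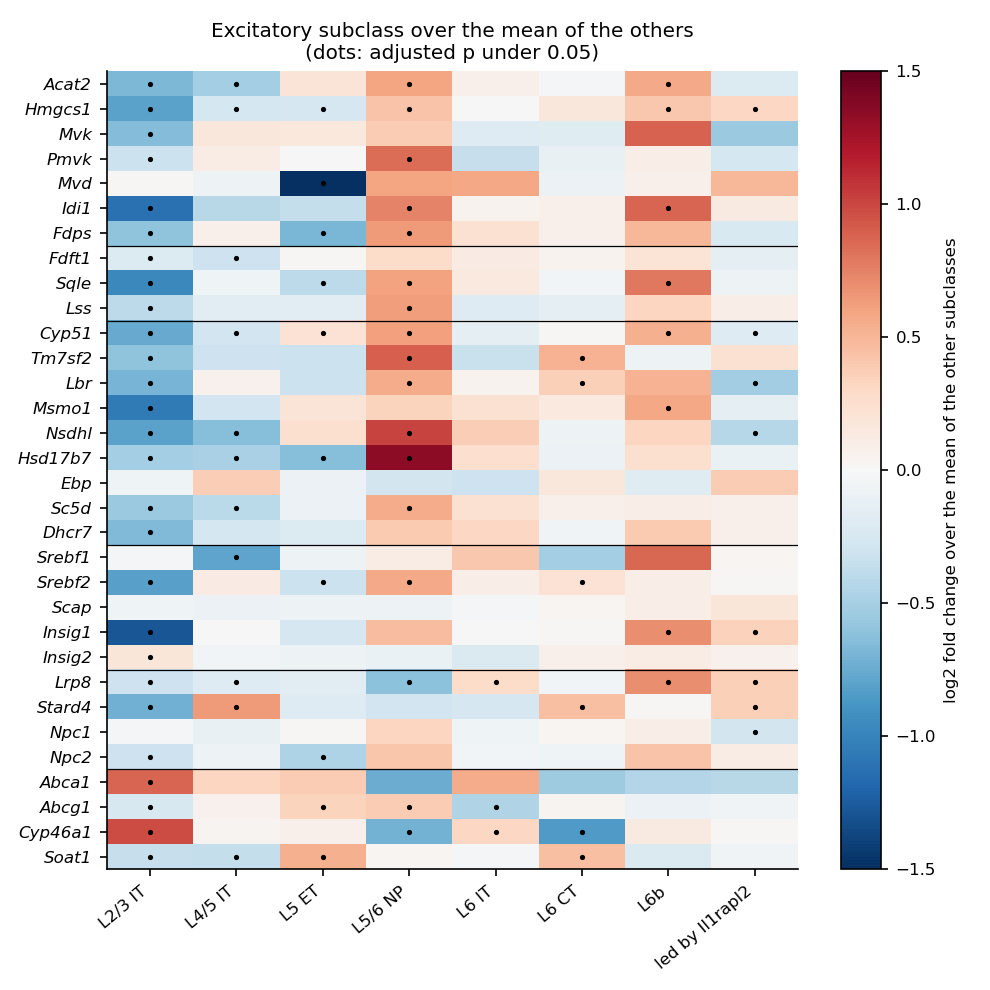
Log2 fold change of each excitatory subclass over the mean of the others (edgeR, 4 libraries) for the 32 members, with dots at an adjusted p under 0.05. L2/3 IT neurons are blue for 24 members and red for Cyp46a1, Abca1 and Insig2, and L5/6 NP neurons are red for 15.

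L5/6 NP neurons had 15 members higher and 2 lower (14.5% and 14.9% of all genes), led by Hsd17b7 (20.9 ± 4.5 CPM, log2 fold change 1.34) and Nsdhl (1.02), with Cyp46a1 (-0.71) and Lrp8 (-0.61) lower. The 15 became 9 without the sleep deprivation library, 10 without the ad lib library and, after thinning each nucleus to 1500 UMIs, 2 of the 15 members still tested. L6b neurons had 8 higher and 0 lower at the adjusted threshold (11.5% of all genes higher and 10.7% lower), among them Idi1 (0.88), Sqle (0.79) and Lrp8 (0.70). The 8 became 5 without the Ex13del library and 0 of 15 members tested after thinning. In L2/3 IT neurons thinning left 6 lower and 1 higher of 15 tested. The other subclasses had 1 to 5 higher and 1 to 10 lower. Over all 14669 genes these subclasses had 2244 to 3095 higher and 1515 to 2586 lower. Depth differed here too, with a median of 4684.5 to 9361 UMIs in L5/6 NP nuclei and 7759 to 15309 in L2/3 IT nuclei over the 4 libraries. In nuclei of 8000 to 16000 UMIs the summed synthesis level was 196.0 to 216.6 CPM in L2/3 IT neurons and 439.0 to 521.9 CPM in L5/6 NP neurons, ranges that do not overlap in the 4 libraries, and 263.4 to 356.9 CPM in L6 CT neurons.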

How the data were processed

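Single-nucleus RNA was measured in 4 libraries of mouse motor cortex, 1 per group, grouped by the labels' treatments. The authors deposited UMI counts as matrices of genes by nuclei. The submitters' processing notes name mm10 and Cell Ranger 6.1.2; whether introns or strand entered the counting is not given in the sources used here. Gene places come from GENCODE vM21, matched by gene ID for all 32 members.

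From these counts, nuclei with at least 500 genes and under 5% mitochondrial UMIs were kept. Scrublet's threshold called at most 3 barcodes per library, so the highest-scoring 0.8% per 1000 barcodes was removed (287 to 734 barcodes). Nuclei were clustered in scanpy 1.11.5 (2000 variable genes, centred within library, 30 components, Leiden at resolution 1) into 24 clusters. The members, the neighbouring gene lists, WPRE_pA, sex-linked genes and mitochondrial genes were left out of the clustering, but the cell type markers were not. Clusters were named by marker lists with thresholds set after the data were seen, and 4309 of 25327 nuclei stayed unnamed. Counts were summed by class and library and scaled to CPM, with exact Poisson and exact conditional 95% intervals, and list medians use log2 of CPM + 1, with 0.8 and its inverse as the folds counted. Classes were tested with edgeR 4.0.16 in R 4.3.3 (quasi-likelihood, Benjamini-Hochberg), against DESeq2 1.42.0 as an alternative. All classes entered 1 fit and all excitatory subclasses another, and each SE was taken from the test statistic with the spread shared within the fit. Since the 4 libraries had different treatments, p-values measure how alike a class difference is in them. Both steps were tested on simulated data. All members are named, in pathway order; of other classes and lists, the extreme ratios. Members and lists were chosen with earlier results of these data known. Comparing nuclei of 1 depth range was added after the data were seen.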

Additional observations from a re-analysis of the deposited data

Results flagged for a closer look

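Members that were at or below 0.8 in excitatory neurons and at or above its inverse in another class, or the other way round, were picked out, which 5 members did, all in the comparison of sleep deprivation with ad lib sleep. The difference between classes was not tested, and each interval in the second class includes 1. In oligodendrocytes Abca1 had 76.0 CPM after sleep deprivation and 58.5 CPM after ad lib sleep, a ratio of 1.299 (95% interval 0.943 to 1.79), against 0.626 in excitatory neurons. Insig1 had 63.3 CPM after sleep deprivation and 44.25 CPM after ad lib sleep in oligodendrocytes (1.432, 0.998 to 2.06), against 0.666 in excitatory neurons. Idi1 had 43.4 CPM after sleep deprivation and 31.5 CPM after ad lib sleep there (1.379, 0.892 to 2.14), against 0.661. In endothelial nuclei Fdps had 66.1 CPM after sleep deprivation and 47.25 CPM after ad lib sleep (1.398, 0.822 to 2.40), against 0.735 in excitatory neurons. Msmo1 had 54.7 CPM after sleep deprivation and 38.5 CPM after ad lib sleep there (1.422, 0.789 to 2.60), against 0.717.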

How the results depend on the processing

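The median log2 ratio of the synthesis genes in excitatory neurons after sleep deprivation over ad lib sleep (-0.317) kept its sign under all alternatives run. It was -0.262 with median-of-ratios factors, -0.250 with TMM factors, -0.237 with no filter on low values, -0.232 in nuclei thinned to 1500 UMIs, -0.260 with equal weight per nucleus, -0.244 with equal weight per subclass and -0.195 in nuclei of 8000 to 16000 UMIs. Ex13del over the WT vector (-0.053) gave -0.116 with median-of-ratios and -0.113 with TMM factors, -0.178 thinned, -0.004 with equal weight per nucleus, 0.0 at matched depth, and turned to 0.023 with equal weight per subclass. The WT vector over ad lib sleep (-0.074) gave -0.156 with no filter, -0.159 thinned, -0.119 with doublets kept and -0.143 with equal weight per nucleus. Sleep deprivation over the WT vector (-0.202) gave -0.153 with no filter, -0.139 thinned, -0.251 without centring, -0.082 with equal weight per subclass and -0.046 at matched depth.

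In other classes the sign of Ex13del over the WT vector turned in inhibitory neurons (0.007 with doublets kept, 0.044 with equal weight per nucleus, 0.051 at matched depth), oligodendrocytes (0.006 with at least 1000 genes) and striatal projection neurons (0.068 with doublets kept, 0.287 with equal weight per nucleus). Sleep deprivation over the WT vector turned in striatal projection neurons (0.043 with equal weight per nucleus), and sleep deprivation over ad lib sleep in oligodendrocytes (0.198 thinned, 0.008 with at least 1000 genes, 0.002 with doublets kept). The cause was not tested. Fewer than 5 members were measured in 7 further cases, which gave no value.

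Between classes 143 calls were made over the 8 contrasts, 136 with no replicate block, 122 to 135 without 1 library each and 85 after thinning, which leaves fewer UMIs. Between subclasses the 90 calls became 66 to 76 without 1 library each and 12 after thinning. No paired analysis was possible because each group has 1 library. Depth limits the other classes, where fewer members were measured.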
